A study of Mus musculus with 16 samples.

Results

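The 9 genes described here encode enzymes and subunits of the methionine cycle, of the transsulfuration branch that leaves it and of methionine salvage. They were chosen by name (Mat1a, Mat2a, Mat2b, Ahcy, Mtr, Mtrr, Cbs, Cth and Mtap) among the 40840 genes of the count table. All 9 have a row there, and 8 passed the filter on low counts. RNA was sequenced from mouse hepatoblasts, a cell line used as a model of hepatocellular carcinoma in which the tumor suppressor p53 is knocked out and the Myc oncogene is overexpressed (p53−/−; Myc). Cells of this single line received sorafenib, an oral kinase inhibitor given in advanced liver cancer, at 8.5 µM, or the vehicle DMSO, for 48 hours (short term) or 7 days (long term). Each of the 4 groups had 4 replicate libraries, and every group, controls included, carried the p53 deletion and the Myc transgene. The question was how short and long exposure to the drug changed gene expression relative to vehicle of the same duration.

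In the methionine cycle, methionine adenosyltransferase (Mat1a in adult hepatocytes, Mat2a elsewhere, with Mat2b as the regulatory subunit of the Mat2a enzyme) joins methionine to ATP and makes S-adenosylmethionine (SAM), the methyl donor of the cell. Methyltransferases turn SAM into S-adenosylhomocysteine, which Ahcy splits into adenosine and homocysteine. Homocysteine is then either methylated back to methionine by the cobalamin-dependent enzyme Mtr, which Mtrr reactivates, or passed into transsulfuration, where Cbs condenses it with serine to cystathionine and Cth cleaves cystathionine to cysteine. Cysteine feeds glutathione, taurine and sulfide. Mtap returns methylthioadenosine, a by-product of polyamine synthesis, to methionine.

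Library totals ranged from 16586254 to 30828427 counts. The labels call the cells hepatoblasts. Of 10 markers of liver epithelium, Dlk1 (3923 to 32979 normalized counts) and Krt19 (973 to 2783) were high, whereas Hnf4a had 0 counts in all 16 libraries, Alb had at most 1 count and Afp at most 14. The fibroblast markers Col1a1 and Col3a1 were also high, with 5 of the 6 markers of that list above 3 counts and Lrat at 0. Of the other lists, Kdr (28.1 to 219 normalized counts) and Cd68 (58.1 to 84.4) were the most abundant genes, with Cdh5, Ptprc and Hbb-bs at no more than 4 counts. With 6 or 7 of its 10 genes above 3 counts, the liver epithelium list had lower summed levels in sorafenib libraries (11718 to 13413 at 48 hours, 5344 to 5563 at 7 days) than in DMSO libraries (34683 to 36030 and 18031 to 19903). Most of this sum was Dlk1, and Cdh1 went the other way at 7 days (181 to 212 with sorafenib against 64.9 to 80.0). The summed fibroblast list was higher at 48 hours (123530 to 136460 against 113640 to 115540) and lower at 7 days (62958 to 64496 against 84984 to 89349), but its genes moved in opposite directions. With sorafenib, Col1a1 was higher at 48 hours (77870 to 84703 against 40446 to 43071) and at 7 days (51558 to 53360 against 40780 to 43101), as was Thy1, whereas Col3a1 was lower (43837 to 50306 against 70002 to 71454, and 10028 to 10465 against 43335 to 45971), as was Pdgfrb. The endothelial list, which was almost all Kdr, was higher with sorafenib (115 to 142 against 43.0 to 75.5, and 186 to 222 against 28.1 to 39.7), and the blood list overlapped between treatments (58.1 to 88.1 in all). Whether these shifts contributed to the differences below was not tested, and in bulk RNA fewer cells of a type and less RNA per cell cannot be told apart.

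The second replicate of sorafenib at 48 hours stood apart. With genes ordered along the genome, its counts relative to its group dropped at chromosome 14 position 104714969 (GRCm39) to a ratio of 0.605 of the level before, over 2238 of 10381 genes. In the 12 libraries of the other groups, the corresponding log2 steps lay between −0.03 and 0.02. Cbs, on chromosome 17, was the only one of the 9 genes beyond that position, so its values at 48 hours are given with and without this library. The other 8 genes lie before it, where the library sat 0.09 above its group on the log2 scale.

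Promoter sequences are shown for 4 genes that moved the same way at 48 hours and 7 days, Cbs, Ahcy and Mat2b, which fell with sorafenib, and Mtr, which rose. RefSeq windows in GRCm38.p6 (250 bases before to 50 after the annotated start) matched 7 of the 9 genes, all but Cth and Mat1a. The 250 bases before the start are given 5′ to 3′ on the gene's strand, which is the minus strand for all 4. They lie at chr17:31637206-31637455 for Cbs, chr2:155074498-155074747 for Ahcy, chr11:40692683-40692932 for Mat2b and chr13:12258114-12258363 for Mtr. Capitals in Cbs mark the letters CACGTG.
Cbs: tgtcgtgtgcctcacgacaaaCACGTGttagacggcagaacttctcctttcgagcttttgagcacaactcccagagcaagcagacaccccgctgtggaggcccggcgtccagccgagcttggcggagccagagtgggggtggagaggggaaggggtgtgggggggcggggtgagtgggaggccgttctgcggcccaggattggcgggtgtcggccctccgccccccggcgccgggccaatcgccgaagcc
Ahcy: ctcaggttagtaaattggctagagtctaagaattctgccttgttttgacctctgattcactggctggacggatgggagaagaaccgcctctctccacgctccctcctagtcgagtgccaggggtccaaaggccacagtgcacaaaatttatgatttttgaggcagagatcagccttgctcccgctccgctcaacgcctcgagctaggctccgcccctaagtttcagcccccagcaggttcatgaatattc
Mat2b: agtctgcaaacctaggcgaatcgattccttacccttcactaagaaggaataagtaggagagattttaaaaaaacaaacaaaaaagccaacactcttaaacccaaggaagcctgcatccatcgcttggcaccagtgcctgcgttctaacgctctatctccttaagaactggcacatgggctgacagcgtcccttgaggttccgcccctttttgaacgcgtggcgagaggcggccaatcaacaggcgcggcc
Mtr: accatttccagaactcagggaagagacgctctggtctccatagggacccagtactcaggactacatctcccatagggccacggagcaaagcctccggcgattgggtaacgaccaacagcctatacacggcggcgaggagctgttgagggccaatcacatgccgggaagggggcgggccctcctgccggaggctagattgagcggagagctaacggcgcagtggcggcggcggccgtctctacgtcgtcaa
The G and C content of these bases was 68.0% in Cbs, 62.0% in Mtr, 52.8% in Ahcy and 50.4% in Mat2b. A search of both strands of the 300-base windows for TGATGNAA, TGACNNNGC and CACGTG, the letters of the amino acid response, antioxidant response and E-box elements, gave a single match among the 7 genes, the CACGTG of Cbs at 229 bases before the start. Among 32851 windows of the same length, TGATGNAA was held by 3.97%, TGACNNNGC by 12.4% and CACGTG by 7.15%. A match is only a description of the letters, and the absence of one says nothing about a factor.

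Sorafenib moved most of these genes, and in both directions. At 48 hours, Cth, Mtr, Mtrr and Mtap rose and Ahcy, Cbs and Mat2b fell, whereas Mat2a did not pass the test. By 7 days, Cth and Mtr were higher and Ahcy, Cbs, Mat2b and Mat2a were lower than in DMSO, and Mtrr and Mtap did not pass. These calls come from edgeR's quasi-likelihood test at an FDR under 0.05, adjusted over all 20444 genes tested. The counts of 7 and 6 of 8 genes stand against a broad response, since 54.6% of all tested genes were called at 48 hours and 56.8% at 7 days. Higher calls made up 26.9% and lower calls 27.7% of tested genes at 48 hours, and 28.9% and 27.9% at 7 days. In 7 of the 8 genes at each time the sorafenib and DMSO libraries did not overlap, as in 48% and 56.8% of all tested genes. The median log2 fold change over the 8 genes was 0.21 at 48 hours and −0.30 at 7 days, beside −0.05 and 0.02 over all genes.

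**Figure D1:**
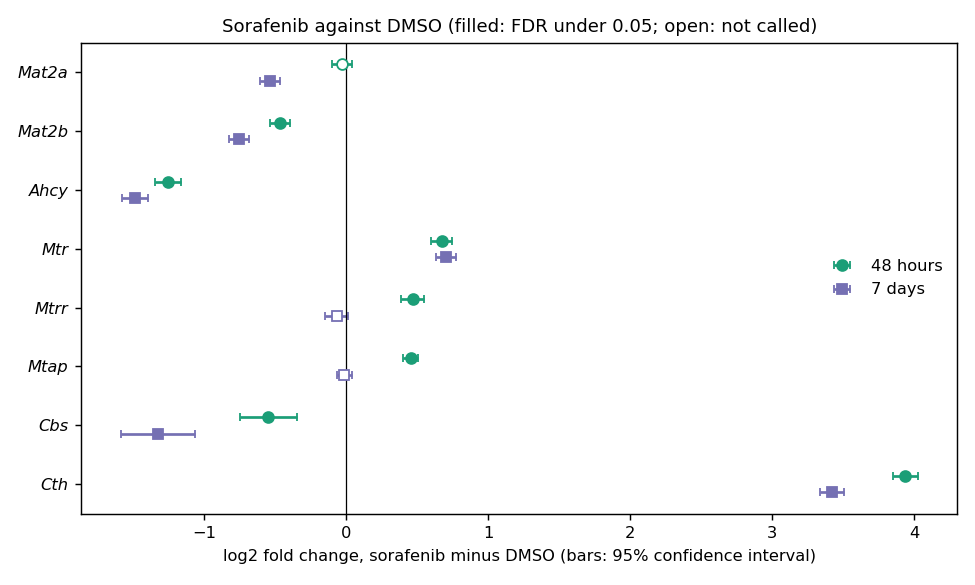
Log2 fold change of sorafenib against DMSO for the 8 tested genes, at 48 hours (circles) and 7 days (squares), with 95% confidence intervals. Filled symbols passed an FDR of 0.05. Cth lies near 4 at 48 hours (3.94) and at 3.42 at 7 days, while the other 7 genes lie between −1.48 and 0.70.

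Of the genes of SAM synthesis, Mat2a and Mat2b were abundant, and Mat2a was lower with sorafenib at 7 days and Mat2b at both times. Mat1a (chromosome 14, 40826926 to 40846384, plus strand, GRCm39), the gene of adult hepatocytes, had 3 counts in all, 1 in each of 3 DMSO libraries, and 0 in the other 13 libraries. A count of 0 allows up to 3 counts, or 2.44 to 4.54 normalized counts depending on the library, so no difference of Mat1a was detectable at this depth. Mat2a (chromosome 6, 72409779 to 72416684, minus strand) had 8721, 9062, 8467 and 8318 normalized counts in the DMSO libraries at 48 hours and 8159, 8845, 8191 and 8675 with sorafenib. These ranges overlapped, and the log2 fold change of −0.03 had a 95% confidence interval from −0.10 to 0.04 (edgeR FDR 0.492). At 7 days, Mat2a was at 11156, 11460, 11124 and 11129 in DMSO and at 7881, 7866, 7443 and 7758 with sorafenib. Every sorafenib library at 7 days was below every DMSO library, and Mat2a fell (log2 fold change −0.54 ± 0.03 SE, edgeR FDR 3.12e-11). The exons of Mat2a share 791 bases (16.9% of their length) with Ggcx and 651 bases (13.9%) with Particl on the opposite strand. The strand setting of the counting is not given in the sources used here, and Ggcx itself had 654 to 1037 counts.

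Mat2b (chromosome 11, 40570130 to 40586036, minus strand), which regulates the Mat2a enzyme, fell at both times. In DMSO it measured 2921, 3033, 2877 and 2945 normalized counts at 48 hours and 2720, 2661, 2768 and 2762 at 7 days. With sorafenib the values were 2067, 2168, 2096 and 2187 at 48 hours and 1625, 1696, 1580 and 1579 at 7 days. No sorafenib library reached the lowest DMSO library of its time. The log2 fold change was −0.47 ± 0.03 SE (edgeR FDR 2.44e-10) at 48 hours and −0.75 ± 0.03 (edgeR FDR 1.33e-13) at 7 days.

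Ahcy (chromosome 2, 154901230 to 154916422, minus strand), the hydrolase that removes S-adenosylhomocysteine, fell the most of the methionine-cycle genes. In DMSO it was at 5828, 5640, 5449 and 5435 normalized counts at 48 hours and at 5744, 5619, 5847 and 5749 at 7 days. In sorafenib libraries it was at 2276, 2625, 2246 and 2250 at 48 hours and at 2074, 2030, 2023 and 2086 at 7 days. The groups were far apart at both times, with the second replicate at 48 hours above the rest of its group. DMSO levels were 2.38-fold those of sorafenib at 48 hours (log2 fold change −1.25 ± 0.04 SE, edgeR FDR 1.89e-15) and 2.80-fold at 7 days (−1.48 ± 0.04, edgeR FDR 1.21e-16). Ahcy has a processed copy elsewhere in the genome, Gm4737, whose 10 to 79 counts per library were 0.566% to 1.57% of those of Ahcy.

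Of the remethylation genes, Mtr, the methionine synthase, rose at both times, and Mtrr, its reductase partner, rose at 48 hours and did not pass the test at 7 days. Mtr (chromosome 13, 12197598 to 12273090, minus strand) was at 1255, 1268, 1222 and 1175 normalized counts in DMSO and at 1883, 1972, 1973 and 2022 with sorafenib at 48 hours. At 7 days the corresponding values were 1326, 1291, 1303 and 1298 in DMSO and 2093, 2172, 2083 and 2147 with sorafenib. Sorafenib libraries were higher without overlap each time (log2 fold change 0.67 ± 0.03 SE, edgeR FDR 1.38e-12, and 0.70 ± 0.03, edgeR FDR 5.14e-13). Mtrr (chromosome 13, 68708894 to 68730288, minus strand) went from 1256, 1232, 1203 and 1184 in DMSO to 1601, 1807, 1629 and 1713 with sorafenib at 48 hours. It rose there, again without overlap (log2 fold change 0.47 ± 0.04 SE, edgeR FDR 2.61e-09). At 7 days, Mtrr was at 1612, 1549, 1601 and 1544 in DMSO and at 1487, 1539, 1504 and 1493 with sorafenib. Those ranges did not overlap, but the difference was small (log2 fold change −0.07, 95% confidence interval −0.15 to 0.01) and did not pass the test (edgeR FDR 0.157).

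Mtap (chromosome 4, 89055359 to 89099319, plus strand), which starts methionine salvage, rose at 48 hours and did not pass the test at 7 days. It was at 4465, 4385, 4392 and 4404 normalized counts in DMSO and at 5843, 6121, 6128 and 6107 with sorafenib at 48 hours (log2 fold change 0.46 ± 0.03 SE, edgeR FDR 5.00e-12). At 7 days it was at 6405, 6436, 6476 and 6514 in DMSO and at 6389, 6401, 6442 and 6364 with sorafenib. Here the groups overlapped, and the log2 fold change of −0.01 had a 95% confidence interval from −0.07 to 0.04 (edgeR FDR 0.687). The DMSO level at 7 days was itself above both groups at 48 hours.

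**Figure D2:**
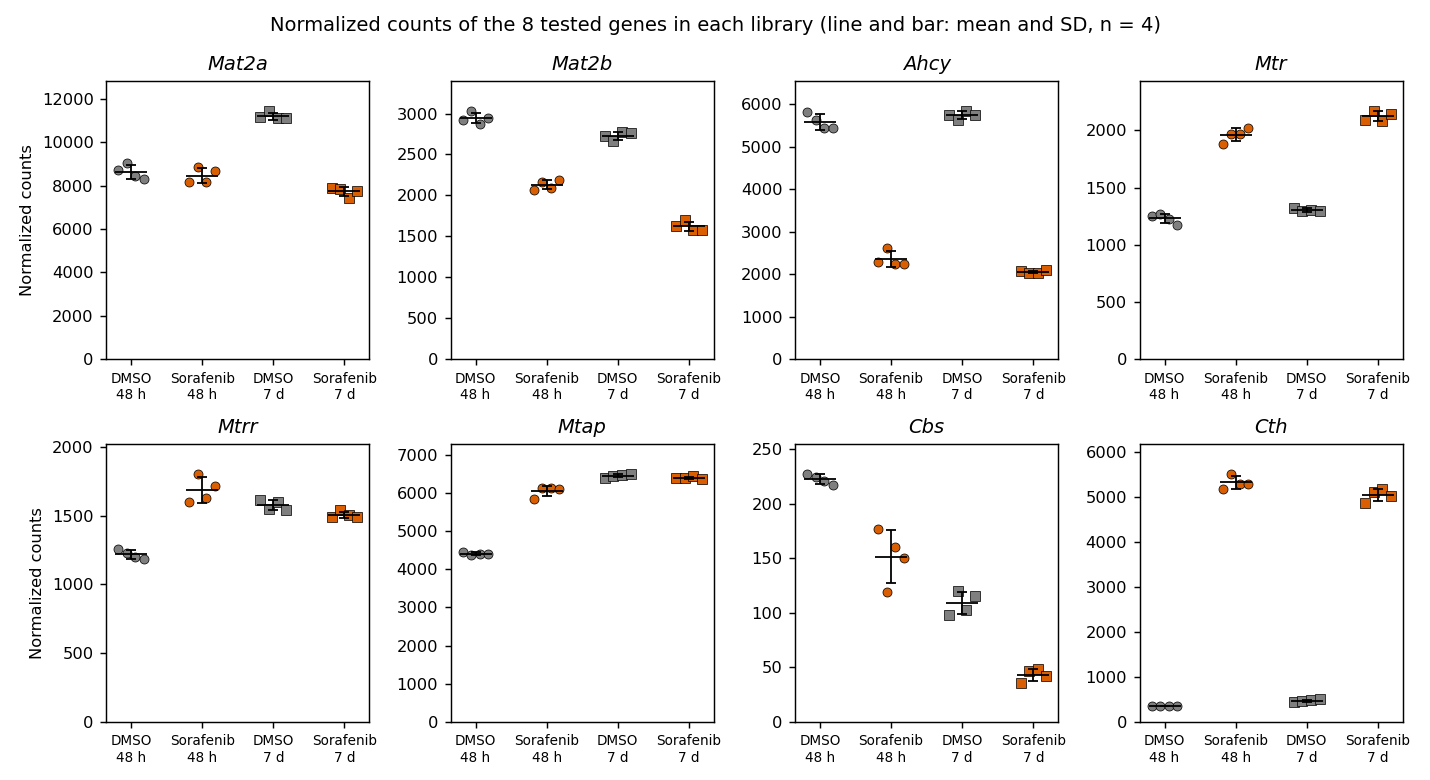
Normalized counts of the 8 tested genes in each of the 16 libraries (grey, DMSO, and orange, sorafenib, with circles at 48 hours and squares at 7 days), with the mean and SD of 4 libraries. In Cth the sorafenib libraries sit at 4866 to 5528 and the DMSO libraries at 344 to 495, in Mtap and Mat2a the DMSO level itself rises from 48 hours to 7 days, and Cbs falls with treatment and with time.

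The 2 enzymes of transsulfuration moved in opposite directions. Cbs (chromosome 17, 31827868 to 31856646, minus strand), which makes cystathionine, was the least abundant of the 8 tested genes, with 32 to 259 raw counts per library. At 48 hours it was at 228, 225, 221 and 217 normalized counts in DMSO and at 177, 119, 160 and 150 with sorafenib. The lowest of these values, 119, belongs to the library whose counts drop along chromosome 14. Cbs fell with that library (log2 fold change −0.55 ± 0.10 SE, edgeR FDR 5.81e-05) and without it (−0.46 ± 0.10, edgeR FDR 5.93e-05). At 7 days Cbs was at 98.4, 120, 103 and 115 in DMSO and at 36.0, 46.3, 48.1 and 42.3 with sorafenib. The fall was larger at that time, to a log2 fold change of −1.32 ± 0.12 SE (edgeR FDR 1.31e-08), again without overlap.

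Cth (chromosome 3, 157599868 to 157630739, minus strand), which releases cysteine from cystathionine, had by far the largest change of the 8 genes. Its DMSO libraries were at 347, 354, 344 and 345 normalized counts at 48 hours and at 448, 457, 487 and 495 at 7 days. With sorafenib it reached 5182, 5528, 5305 and 5300 at 48 hours and 4866, 5127, 5187 and 5035 at 7 days. The lowest sorafenib library was thus well above the highest DMSO library at either time. The increase was 15.3-fold at 48 hours (log2 95% confidence interval 3.85 to 4.02, edgeR FDR 9.63e-23) and 10.7-fold at 7 days (3.34 to 3.50, edgeR FDR 1.46e-22). Counted from the largest positive fold change downward, Cth stood at place 207 of 20444 genes at 48 hours and at place 394 at 7 days, low-count genes included.

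Because Cbs and Cth act in sequence, their ratio was taken within each library, per kilobase of exon. The size of the ratio depends on the exon lengths used, which cancel in the difference between groups. At 48 hours the Cth to Cbs ratio was 3.57, 3.69, 3.65 and 3.72 in DMSO and 68.6, 108, 77.7 and 82.8 with sorafenib. By 7 days it was 10.7, 8.91, 11.1 and 10.1 in DMSO and 316, 259, 252 and 279 with sorafenib. The ratio was higher in every sorafenib library, by 4.51 on the log2 scale at 48 hours and by 4.76 at 7 days. Since Cth and Cbs each separated the groups without overlap and in opposite directions, their ratio had to separate them too. The exact two-sided permutation p was therefore fixed at the smallest value that 4 against 4 libraries allow (0.0286) and adds no evidence beyond the tests of the separate genes. Without the library with the drop the difference at 48 hours was 4.38.

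**Figure D3:**
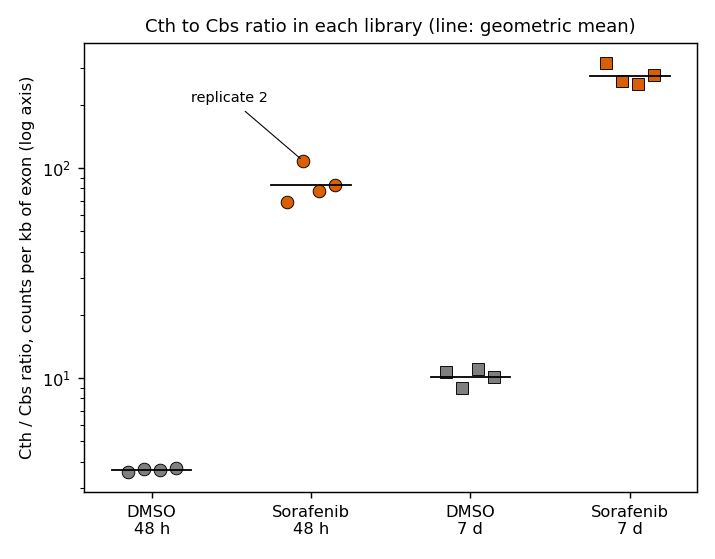
Ratio of Cth to Cbs counts per kilobase of exon in each of the 16 libraries, on a log axis, with the geometric mean of each group as a line. The DMSO libraries lie at 3.57 to 3.72 at 48 hours and 8.91 to 11.1 at 7 days, the sorafenib libraries at 68.6 to 108 and 252 to 316, and the highest value at 48 hours is the second replicate.

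Per kilobase of exon, the order of the genes changed with treatment. The exon length of a gene was that of all its annotated exons merged (11331 bases for Cbs and 4840 for Cth). This can exceed the length of the transcript expressed. The order between genes and the shares below hold for these lengths, and other lengths were not tested. In DMSO at 48 hours, Ahcy (1913 ± 63.5, SD, n = 4) and Mat2a (1847 ± 69.6) were the highest and overlapped. They were followed, without overlap between neighbours, by Mtap (1093 ± 9.09), Mat2b (430 ± 9.59), Mtrr (130 ± 3.39), Mtr (110 ± 3.69), Cth (71.8 ± 0.933) and Cbs (19.6 ± 0.419). With sorafenib at 48 hours, Cth (1101 ± 29.9) stood below only Mat2a (1810 ± 73.7) and Mtap (1499 ± 34.3), with Ahcy (804 ± 63.1) next. Mat2b (311 ± 8.40) followed, Mtrr (179 ± 9.86) and Mtr (175 ± 5.14) overlapped, and Cbs (13.4 ± 2.13) was last of the tested genes.

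At 7 days the DMSO order was Mat2a (2398 ± 34.7, SD, n = 4), Ahcy (1965 ± 31.9), Mtap (1600 ± 11.7), Mat2b (398 ± 7.24), Mtrr (168 ± 3.73), Mtr (116 ± 1.34), Cth (97.4 ± 4.76) and Cbs (9.62 ± 0.893), with no overlap between neighbours. With sorafenib, Mat2a (1654 ± 43.5) and Mtap (1585 ± 8.14) overlapped at the top, and Cth (1044 ± 28.9), Ahcy (703 ± 10.7), Mat2b (237 ± 8.04), Mtr (189 ± 3.77), Mtrr (160 ± 2.47) and Cbs (3.81 ± 0.473) followed. Mtr and Mtrr thus stood in opposite order in the DMSO and sorafenib groups at this time. Of the summed level of the 9 genes per kilobase, Cth made up 1.28% in DMSO and 18.7% with sorafenib at 48 hours, and 1.44% and 18.7% at 7 days. The share of Ahcy went from 34.1% to 13.6% and from 29.1% to 12.6%.

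**Figure D4:**
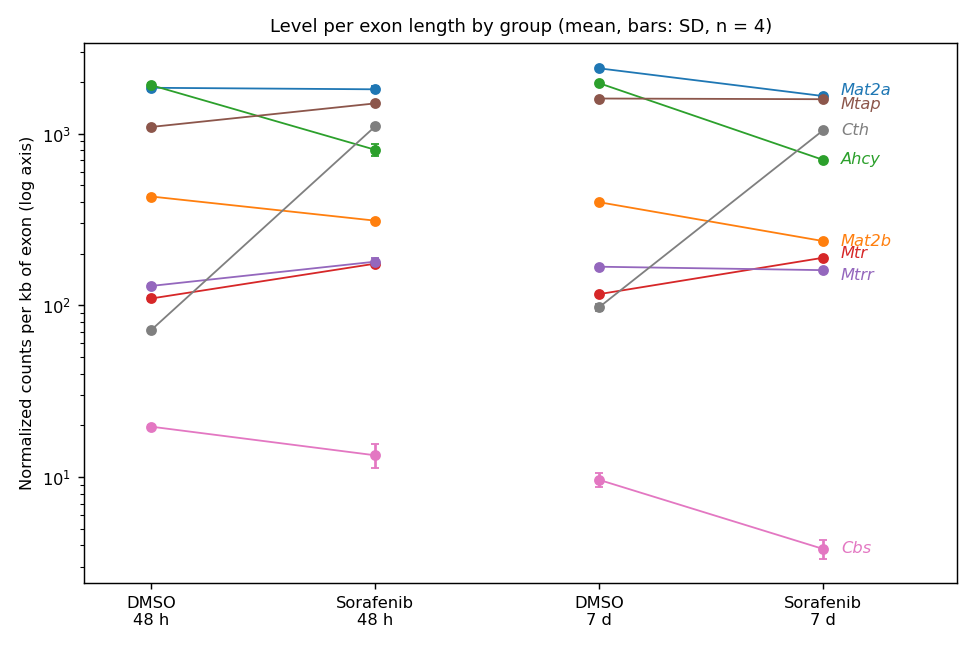
Mean level of the 8 tested genes per kilobase of exon in each group, on a log axis, with the SD of 4 libraries as bars and a line joining DMSO and sorafenib of the same duration. The line of Cth crosses those of Mtr, Mtrr and Mat2b and ends above Ahcy (1101 against 804 at 48 hours and 1044 against 703 at 7 days), while Cbs is the lowest throughout (3.81 to 19.6).

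The response at 7 days was compared with that at 48 hours by the interaction of treatment and time, in which a negative value means that the sorafenib effect was lower at 7 days. All 7 genes called in this test had a negative value, and none a positive one. Cbs had the largest (log2 difference −0.78 ± 0.16 SE, edgeR FDR 0.000555), followed by Mtrr (−0.53 ± 0.05, edgeR FDR 1.73e-07), Cth (−0.52 ± 0.05, edgeR FDR 2.47e-07) and Mat2a (−0.51 ± 0.05, edgeR FDR 5.41e-08). Mtap (−0.47 ± 0.04, edgeR FDR 2.59e-09), Mat2b (−0.28 ± 0.05, edgeR FDR 7.23e-05) and Ahcy (−0.23 ± 0.06, edgeR FDR 0.00429) were smaller. For Mtr the difference was 0.03, with a 95% confidence interval from −0.07 to 0.13 (edgeR FDR 0.691). A negative interaction had different forms. Genes that fell with sorafenib (Cbs, Ahcy and Mat2b) fell further, Mat2a passed the test at 7 days and not at 48 hours, Mtrr and Mtap rose at 48 hours and did not pass at 7 days, and Cth stayed high with a smaller fold.

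Over all tested genes, 36.8% were called in the interaction, 15.5% higher and 21.3% lower, and the median was 0.02 against −0.49 for the 8 genes. Higher calls were thus 42.1% of all calls, a share that became 55.6% when libraries were scaled by total counts alone. Under that scaling 6 of the 8 genes were still called, all lower, and Ahcy did not pass, at −0.14 (edgeR FDR 0.131). Without the second replicate of sorafenib at 48 hours, 7 genes were again lower, 0 higher and 1 not called, and Cbs was at −0.86 ± 0.16 SE (edgeR FDR 1.22e-05).

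The untreated level changed between the time points as well, which enters each fold change. These comparisons use the same libraries as those of treatment, and any difference in handling between the time points cannot be told apart from time. In DMSO cells at 7 days against 48 hours, Mtap (log2 fold change 0.55 ± 0.03 SE), Cth (0.44 ± 0.04), Mat2a (0.38 ± 0.03) and Mtrr (0.37 ± 0.04) rose, and Cbs (−1.02 ± 0.10) and Mat2b (−0.11 ± 0.03) fell, with edgeR FDR from 7.39e-13 for Mtap to 0.00870 for Mat2b. Ahcy (0.04 ± 0.04, edgeR FDR 0.477) and Mtr (0.08 ± 0.04, edgeR FDR 0.0537) did not pass. The 6 of 8 called compare with 49.4% of all tested genes (23.9% higher and 25.5% lower), and 7 did not overlap, as in 50.8% of all genes. The median was 0.23 over the 8 genes and −0.01 over all genes.

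In sorafenib cells at 7 days against 48 hours, Cbs had the largest difference of the 8 (log2 fold change −1.80 ± 0.12 SE, edgeR FDR 3.49e-10), at place 534 of 20444 counted from the lowest value upward. Without the library with the drop, Cbs was at −1.89 ± 0.13 (edgeR FDR 9.00e-18). Mat2b (−0.39 ± 0.03), Ahcy (−0.19 ± 0.04), Mtrr (−0.16 ± 0.04) and Mat2a (−0.13 ± 0.03) also fell. Mtr (0.11 ± 0.03) and Mtap (0.08 ± 0.03) rose, with edgeR FDR no higher than 0.0154 in these 6 genes. Cth did not pass after adjustment, at −0.08 with an unadjusted 95% confidence interval from −0.15 to −0.01 (edgeR FDR 0.0819). All tested genes were called at 39.7% (17.5% higher and 22.3% lower), groups did not overlap in 35.8% of them and in 7 of the 8 genes, and the medians were −0.15 for the 8 genes and 0.01 overall.

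The other genes of the pathway were taken from 5 lists of 47 genes in all, of which 45 were tested. Bhmt and Bhmt2, the betaine-dependent enzymes that remethylate homocysteine in liver, had too few counts. Over the 45 genes, 20 were higher, 12 lower and 13 not called at 48 hours, and 18 were higher, 19 lower and 8 not called at 7 days. The background for these counts and for those of each list below is the share called over all tested genes, 54.6% at 48 hours (26.9% higher and 27.7% lower) and 56.8% at 7 days (28.9% higher and 27.9% lower). Medians were 0.06 and −0.01 on the log2 scale. Genes named below beyond the 3 with the largest called change per list and time were named after their values were seen.

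Genes that make, use or dispose of SAM mostly rose at 48 hours, with 6 of 9 higher, 1 lower and 2 not called, and were 5 higher, 3 lower and 1 not called at 7 days. Nnmt, which spends SAM on methylating nicotinamide, went from 145 ± 11.9 (SD, n = 4) to 970 ± 52.8 normalized counts at 48 hours and from 257 ± 5.83 to 1078 ± 65.7 at 7 days (log2 fold change 2.74 and 2.06, edgeR FDR 6.25e-18 and 9.29e-17). Ahcyl1, a relative of Ahcy that regulates calcium release, rose from 7182 ± 200 to 13763 ± 448 at 48 hours (0.94, edgeR FDR 9.12e-16), the opposite direction to Ahcy. Its log2 fold change at 7 days was 0.34. Gamt, the last enzyme of creatine synthesis, was at −0.09 at 48 hours (edgeR FDR 0.203) and was higher than in DMSO at 7 days (0.69, edgeR FDR 6.00e-09). Mean Gamt levels fell from 48 hours to 7 days in both treatments, from 855 to 394 normalized counts in DMSO and from 806 to 636 with sorafenib. Pemt, which spends SAM on phosphatidylcholine, fell at both times (−0.71 and −0.55).

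In methionine salvage and polyamine synthesis, 4 of 10 genes were higher, 3 lower and 3 not called at 48 hours, and 4 were higher, 4 lower and 2 not called at 7 days. Sat1, which acetylates polyamines for breakdown or export, rose at both times (log2 fold change 1.37 ± 0.10 SE at 48 hours and 1.36 ± 0.10 at 7 days). Odc1, the first enzyme of polyamine synthesis, went from 6479 ± 98.2 to 13077 ± 215 normalized counts (SD, n = 4) at 48 hours (1.01, edgeR FDR 6.00e-17), and its inhibitor-binding partner Azin1 rose by 0.62 (edgeR FDR 2.74e-05). At 7 days the log2 fold change was 0.22 for Odc1 and 0.33 for Azin1. Amd1, which decarboxylates SAM for polyamine synthesis, fell by 0.14 at 48 hours and by 0.70 at 7 days on the log2 scale. Apip, a step of salvage after Mtap, rose by 0.33 and 0.47. Of the other salvage genes, Mri1 was lower at both times (−0.18 and −0.33), Adi1 was lower at 48 hours (−0.37) and Enoph1 at 7 days (−0.44). Srm, spermidine synthase, was lower at 7 days (−0.39).

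Cobalamin genes, which deliver the cofactor of Mtr, counted 2 of 9 higher, 3 lower and 4 not called at 48 hours and 1 higher, 4 lower and 4 not called at 7 days. Cd320, the receptor for the cobalamin carrier, fell at both times (log2 fold change −0.76 and −0.87, edgeR FDR 2.92e-06 and 4.69e-07). Tcn2, the carrier itself, was lower than in DMSO at 48 hours (−0.92) and higher at 7 days (0.32, edgeR FDR 0.0315), where the libraries overlapped. The difference between the times passed the interaction test (1.23 ± 0.16 SE, edgeR FDR 3.55e-06). Mean Tcn2 levels fell from 48 hours to 7 days in both treatments, from 331 to 104 normalized counts in DMSO and from 177 to 130 with sorafenib. Mmadhc, which directs cobalamin to its enzymes, rose at 48 hours (0.32), and Mmaa, of the mitochondrial branch, fell at 7 days (−0.29).

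Genes that consume cysteine or oxidise sulfide split, with 4 of 10 higher, 3 lower and 3 not called at 48 hours and 4 higher, 5 lower and 1 not called at 7 days. Sqor, which oxidises hydrogen sulfide in mitochondria, went from 6.81 ± 3.46 to 126 ± 9.91 normalized counts (SD, n = 4) at 48 hours and from 14.1 ± 4.11 to 423 ± 16.045 at 7 days, the largest log2 fold changes in the 5 lists (4.20 ± 0.21 SE and 4.92 ± 0.15). At 48 hours its DMSO libraries had only 1.74 to 9.51 normalized counts. The 95% confidence interval at that time, 3.77 to 4.63, includes the value of Slc7a11 (4.15). Suox, which turns sulfite into sulfate, rose at both times (0.87 and 1.71). The sulfurtransferases Mpst (−1.38 and −1.10) and Tst (−1.41 and −1.01) and Csad, a taurine enzyme (−1.02 and −0.91), fell at both times. Gclc, the catalytic subunit of the first enzyme of glutathione synthesis, rose by 0.38 and 0.29. Its modifier Gclm rose at 48 hours (0.50) and was lower than in DMSO at 7 days (−0.13, edgeR FDR 0.0439). Mean Gclm levels rose from 48 hours to 7 days in both treatments, from 939 to 2003 normalized counts in DMSO and from 1330 to 1835 with sorafenib. Gss, which completes glutathione, was lower at 7 days (−0.57).

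Among the transporters, 4 of 7 were higher at both times, with 2 lower at 48 hours and 3 at 7 days. Slc7a11, which imports cystine as an alternative source of cysteine, went from 88.6 ± 6.97 to 1574 ± 93.9 normalized counts (SD, n = 4) at 48 hours and from 426 ± 32.6 to 2106 ± 57.9 at 7 days. Its log2 fold change was 4.15 ± 0.07 SE at 48 hours and 2.30 ± 0.05 at 7 days, and the difference of −1.85 ± 0.09 between them passed the interaction test (edgeR FDR 3.58e-12). At 48 hours, Slc7a5, a carrier of methionine and other large neutral amino acids (1.91, edgeR FDR 1.84e-19), and Slc3a2, the heavy chain that it shares with Slc7a11 (1.35, edgeR FDR 1.20e-10), rose with it. The other large neutral amino acid carriers Slc43a1 (−1.17 and −1.55) and Slc43a2 (−0.55 and −1.21) fell at both times.

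Of the list genes named here, Sat1, Cd320, Csad, Mpst, Tst and Slc3a2 lie beyond the position at which the second replicate of sorafenib at 48 hours drops. Without that library their log2 fold changes at 48 hours were 1.47, −0.62, −0.87, −1.26, −1.30 and 1.48, and each was still called by edgeR. The name Azin1 had no unique match in the gene annotation, so its side of that position was not read. Its sorafenib libraries at 48 hours ran from 3233 to 5491 normalized counts (median 5193), and its log2 fold change went from 0.62 to 0.77 without the library. The list counts at 48 hours were the same without the library, except that Sms, spermine synthase, joined the higher genes (0.30, edgeR FDR 5.91e-07), which made 5 of 10 in salvage and polyamine synthesis. In the interaction, the 45 list genes gave 6 higher and 17 lower calls with the library and 6 higher and 23 lower without it. Calls over all genes went from 7515 (36.8%, 15.5% higher and 21.3% lower) to 8761. The higher and lower shares over all genes without the library are not given here, so the list counts without it have no matching background. The cobalamin list went from 1 higher and 2 lower to 2 higher and 5 lower of 9, and the transporters from 5 to 7 lower of 7.

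**Figure D5:**
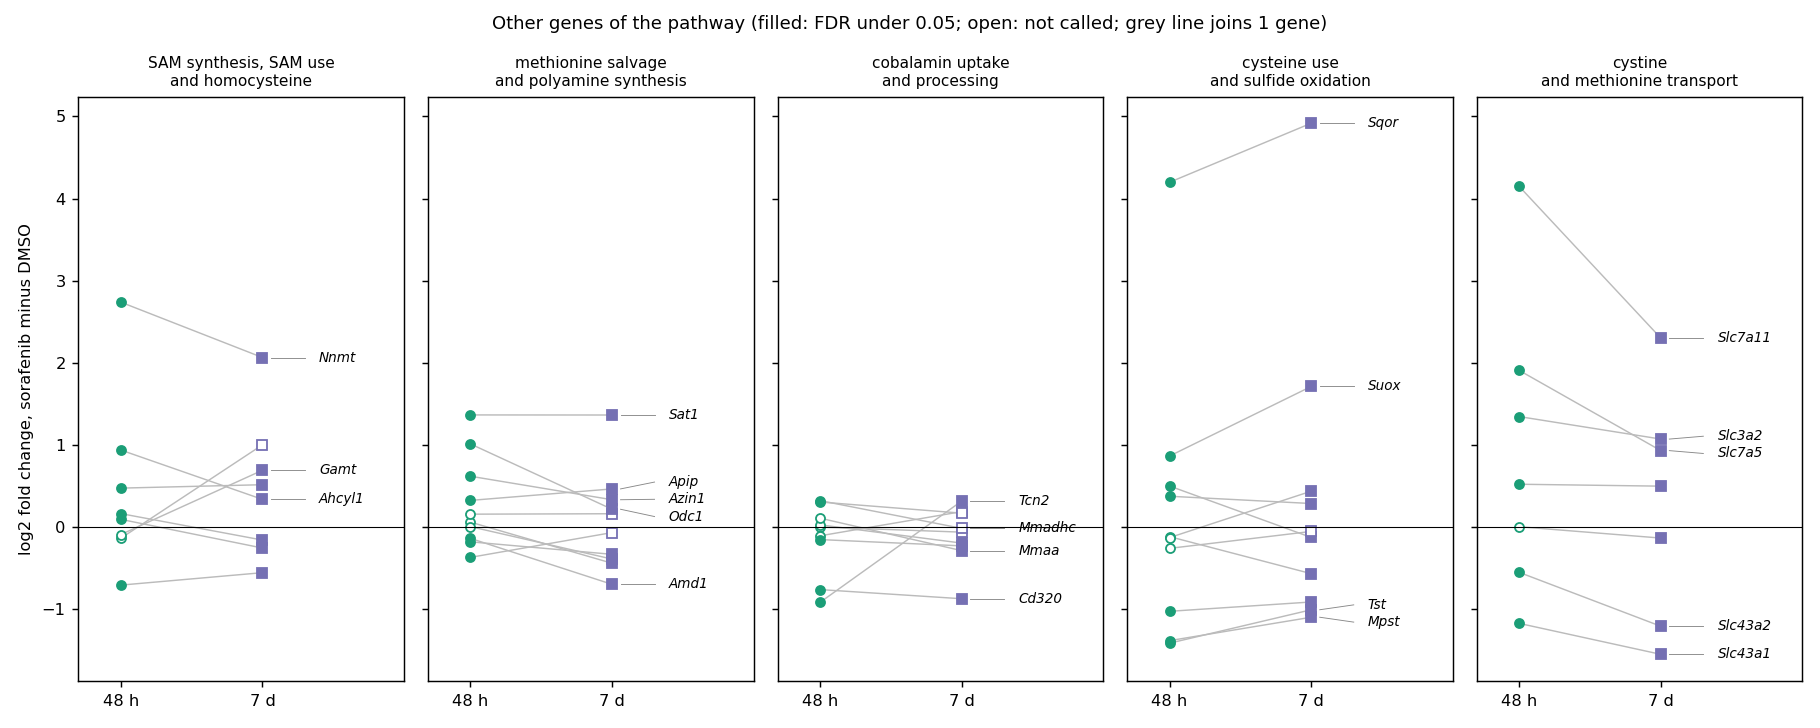
Log2 fold change of sorafenib against DMSO at 48 hours and 7 days for 44 of the 45 tested genes of the 5 pathway lists, with a grey line joining the values of a gene and filled symbols for an FDR under 0.05. Sqor (4.20 and 4.92) and Slc7a11 (4.15) lie above the rest at 48 hours and Sqor at 7 days, where Slc7a11 (2.30) is close to Nnmt (2.06), and Slc43a1 (−1.55 at 7 days) is the lowest.

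To describe which genes resembled each enzyme, log2 normalized counts were correlated over the 16 libraries with those of 10645 other genes of at least 100 mean counts. The enzymes described here were left out when the nearest genes were picked. The 16 libraries form 4 groups, so the coefficients mostly reflect the group means, and no test was made. The nearest to Cth were Niban1, Trib3 and Ddit3 (Pearson r = 0.999 for each), of which Trib3 and Ddit3 are known genes of the integrated stress response. For Ahcy they were Cldn15 (0.998), Ildr2 (0.996) and Mgst1 (0.995), for Mtr Parm1 (0.996), Cyb5r1 (0.994) and Nfu1 (0.994), and for Mat2b Plxnb1, Cers4 and Tgm2 (0.995 for each). Mtap was nearest to Tax1bp1 (0.995), Aen (0.994) and Prelid3b (0.993), and genes near Mat2a included Xpo4 (0.983) and Xrn2 (0.983). Cbs was nearest to Dsg2 (0.983), Col8a2 (0.981) and Clmp (0.979), and Mtrr to Nln (0.980), Rif1 (0.976) and Hus1 (0.976).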

How the data were processed

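The authors made 16 stranded libraries of polyadenylated RNA (Illumina), ran them on a NovaSeq instrument and aligned the reads to GRCm39 with STAR 2.7.1a. The submitters' processing notes also list featureCounts 2.0.6. The strand setting and gene annotation are not given in the sources used here, so reads of genes that overlap on opposite strands were taken as counted. The deposited values are counts, whole numbers for 40840 genes, with no normalization or filter and no pooling, and totals of 16586254 to 30828427 per library limit the precision of low genes. Groups came from the labels. No label states that replicates were separate cultures, so p-values measure the spread between these samples, which may be technical. Replicate counts differed by more than sampling noise in every pair of a group (lowest chi-square per gene 1.58). The largest values were those of replicate 4 of DMSO at 7 days with its group (53.1, 70 and 71.5). Those of the second sorafenib replicate at 48 hours were 32.6, 38 and 35.6. In DMSO at 48 hours, replicate 1 gave 42.7 with replicate 2 and 22.9 with replicate 3. Replicate 4 gave 39.2 and 18.7 with the same replicates. The remaining pairs of that group were lower (5.09 for replicates 1 and 4, 5.95 for replicates 2 and 3). In the SD of log2 ratios, the pairs of that sorafenib replicate were highest (0.333 to 0.334, against 0.107 to 0.159 in all other pairs).

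Genes with fewer than 10 counts in total were removed (20396), which left 20444. The test was that of edgeR 4.0.16, run under R 4.3.3 (quasi-likelihood, after TMM, 1 coefficient per group, no block, Benjamini-Hochberg FDR under 0.05 over all tested genes). Contrasts were sorafenib against DMSO at each time, their difference, and 7 days against 48 hours within each treatment. Normalized counts are counts divided by library total times TMM factor, relative to the geometric mean over libraries. Confidence intervals are 95% intervals of the fit. Positions and exon lengths are those of GENCODE M39, with the exons of all transcripts of a gene merged. The Cth to Cbs ratio had an exact permutation test. The script was tested on simulated data.

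The enzymes, the pathway lists and the markers were chosen with earlier results of these data known. From each list, the 3 genes with the largest absolute fold change among those called at each time, were named if their mean over the libraries reached 100 normalized counts. Some genes that these rules pick are not reported here. Alternatives were DESeq2 1.42.0 (the tool of the study, there in version 1.40.2), its size factors, total counts alone, other filters, a fold-change threshold, only the groups compared, the replicate number as a block, and leaving out each library.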

Additional observations from a re-analysis of the deposited data

Results flagged for a closer look

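In 3 of 32 groups of 4 libraries (8 genes in 4 groups), a library lay far from the other 3 relative to the range of the group, where chance gives about 1 in 20. Mat2a was at 11460 normalized counts in the second DMSO library at 7 days, above 11124 to 11156 in the others. Ahcy was at 2625 in the second sorafenib library at 48 hours, the library whose counts drop along chromosome 14, against 2246 to 2276. Mtap was at 5843 in the first sorafenib library at 48 hours, below 6107 to 6128. Each of the 3 values stayed on the same side of the other treatment as its group, or, for Mat2a, increased the distance to it.

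The effect of sorafenib differed between 7 days and 48 hours by the interaction term in 7 of the 8 genes, with log2 differences of −0.51 for Mat2a, −0.28 for Mat2b, −0.23 for Ahcy, −0.53 for Mtrr, −0.78 for Cbs, −0.52 for Cth and −0.47 for Mtap (edgeR quasi-likelihood test, FDR from 2.59e-09 for Mtap to 0.00429 for Ahcy). Of all tested genes, 36.8% passed the same test.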

How the results depend on the processing

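The direction and the call of the 8 genes held in 896 of the 912 values recomputed for single genes under an alternative. Many of these values left out a library of a group outside the contrast, which could hardly move the fold change, so this count overstates the number of separate checks. A threshold of 1 on the absolute log2 fold change left 2 of the 8 genes at 48 hours, 3 at 7 days, 0 in the interaction, 1 in DMSO over time and 1 in sorafenib over time, of 3690, 4202, 1965, 2242 and 1727 genes in all. Without each library in turn, the Cth to Cbs log2 difference was 4.38 to 4.60 at 48 hours and 4.70 to 4.81 at 7 days, where the exact permutation p can only be the smallest that 3 against 4 libraries allow (0.0571). Values near 0 changed sign without being called. Mat2a at 48 hours was 0.00895 with no filter beyond 1 count, Mtap at 7 days was 0.010 with total counts alone, 0.010 with no filter and 0.013 with at least 10 counts in every library, and Ahcy in DMSO over time was −0.020 with total counts alone. With total counts alone, Mat2a at 48 hours was called (−0.10, edgeR FDR 0.0348), and Ahcy in the interaction (−0.14, FDR 0.131) and Mat2a in sorafenib over time (−0.10, FDR 0.0567) were not. With only the libraries of 7 days, Mtrr was called (−0.07, FDR 0.0337), and Mtr in DMSO over time was called under 7 alternatives (edgeR or DESeq2 FDR 0.0122 to 0.0438), among them leaving out the second DMSO or the second sorafenib library of 48 hours. The cause of these changes was not tested. Another scaling moved the median of all genes by at most 0.09. Deviations of same-numbered libraries correlated at −0.05 to 0.01 at 48 hours and −0.00 to 0.13 at 7 days. Those of different-numbered libraries correlated at −0.04 to 0.07 and −0.17 to 0.115. These ranges overlap, so the check cannot decide whether the replicate numbers pair the libraries. With the replicate block, 7, 6, 7, 6 and 7 of the 8 genes were called in the 5 contrasts, with no call changed, of 10644, 11027, 6987, 9871 and 7809 genes. DESeq2 called 7, 6, 7, 7 and 7. Depth limits Mat1a, with 3 counts in all, and Cbs, with 32 to 57 counts per library at 7 days with sorafenib.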
